A study of Homo sapiens with 12 samples.

Results

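Transcripts of the Fanconi anaemia pathway and of homologous recombination were followed in A375, an established human melanoma cell line, on 12 Illumina bead arrays. The genes were 37, listed by symbol. The rule for membership uses no measured value, but the list was chosen with earlier results of these data known. In the deposited table of normalized intensities, 30 of the 37 genes had a probe, 48 probes among 38220 in all, whose single gene symbols name 18810 genes. Of these, 37 probes of 27 genes passed the detection filter, a scanner p-value under 0.01 on 2 arrays or more, and were tested among 16563 probes in all. Detection reached all 12 arrays for 34 of the 37 tested probes. FANCM, the helicase-like anchor of the core complex, RAD50, the ATPase that tethers broken ends, and ATM, the kinase that answers double-strand breaks, had probes that were detected on 0 arrays, as were the other untested probes. FANCA, FANCF, FANCD2, BRIP1, BRCA2, XRCC2 and RBBP8 were not analysed here.

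The Fanconi pathway repairs crosslinks between the strands of DNA: a core complex, working with the ubiquitin-conjugating enzyme UBE2T, marks FANCI and its partner FANCD2 with ubiquitin, and nucleases are then brought to the lesion. The double-strand break that this leaves is repaired by homologous recombination, in which the ends are resected, BRCA1, BARD1 and PALB2 help to prepare them for strand invasion, and helicases and nucleases resolve the joined molecules. Many of these genes are known to be expressed mostly in proliferating cells, around DNA replication.

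The cells had been exposed to ciclopirox, an antifungal hydroxypyridone that binds iron, or to crizotinib, an inhibitor of the tyrosine kinases ALK, MET and ROS1. Each drug was used at its 75% inhibitory concentration, as determined at 72 h of treatment, for 8 h (3 arrays per drug) or 24 h (2 arrays per drug), and the 2 control arrays stood for cells given the vehicle DMSO. The labels give no time for the controls, so the same 2 arrays served both times and the comparisons against control share them. The titles number the replicates without saying whether they were separate cultures, so the p-values rest on array-to-array variation that could be purely technical. The cells were all of this 1 line.

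Values below are log2 intensities, and differences between groups are on the same log2 scale, with the standard error and the Benjamini-Hochberg adjusted p of a limma fit across all 16563 probes. A probe was called at an adjusted p under 0.05. Within groups the arrays correlated at 0.993 to 0.994 over the tested probes. The background level, the 99th percentile of undetected probes, lay between 5.26 and 5.41. The melanocyte-lineage factor SOX10 was above background on 12 arrays (11.11 to 11.90) and was lower at 8 h of both drugs (-0.59 ± 0.08 with ciclopirox, adjusted p = 0.004164; -0.60 ± 0.08 with crizotinib, adjusted p = 0.004659), but not called at 24 h, MITF on 8 arrays with 1 of its 3 probes, and the pigment genes PMEL, MLANA, TYR and TYRP1 were detected on 0 arrays. Of the 13 melanoma and melanocyte probes, only that of SOX10 was above background on all control and 8 h arrays. The summed level of the 13 was 3809 to 3925 in control, 2601 to 2710 at 8 h of ciclopirox and 2504 to 2826 at 8 h of crizotinib. Of the 3 that were tested, only SOX10 was called at 8 h. The median difference of the 3 was 0.07 with ciclopirox (1 below 0) and -0.11 with crizotinib (2 below 0). The part of SOX10 or of this sum in the repair genes' differences at 8 h was not tested. Keratinocyte, leukocyte and endothelial marker probes were not above background on any array. Because the deposited intensities had been normalized to nearly equal distributions, and the samples are bulk RNA, fewer cells in a state that expresses a gene and less RNA per cell cannot be told apart.

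A conflict in the deposited names bears on every result. The scanner table, whose columns are named in the sample descriptions, and the normalized table, whose columns are named by sample, matched for the 2 control arrays and differed for the other 10, each of which followed a scanner column described as another sample (r from 0.928 to 0.979). Under the normalized table's names each of the 12 arrays had a member of its own group as nearest neighbour, and under the descriptions 7 of 12 did. The 2 crizotinib 24 h arrays followed the columns described as ciclopirox 8 h replicates 1 and 2 (r = 0.977 and 0.979). The results below use the normalized table's names. Under the descriptions the median difference of the 37 tested probes from control was -0.53 at 8 h of ciclopirox and 0.0001 at 24 h of crizotinib. The drug and time to which a fall is assigned therefore depend on the naming. With the scanner columns named by the descriptions, 0 of the 106 called differences of the listed genes were kept, 60 were no longer called and 46 turned sign, 1 of them called in the turned direction.

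After 24 h of crizotinib most of the tested repair genes stood below control. Of 37 probes, 24 fell and 0 rose (64.9%), where 25.8% of all 16563 probes were called, 13% higher and 12.9% lower. The 24 probes belonged to 21 of the 27 genes, and in 19 genes every tested probe was lower. The median difference of the 37 probes was -0.72, and 35 of them lay below 0, while the median over all tested probes was within 0.02 of 0. The exonuclease EXO1 and the core complex subunit FANCB stood lowest against control, followed by the DNA translocase RAD54L and the helicase BLM. With median-scaled scanner signals matched to the normalized table, EXO1 probe 1 was lowest (-1.69), followed by MSH6 (-1.42) and RAD51AP1 (-1.31). The count ranged from 20, without crizotinib 24 h replicate 1, to 23 when single arrays were left out.

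**Figure D1:**
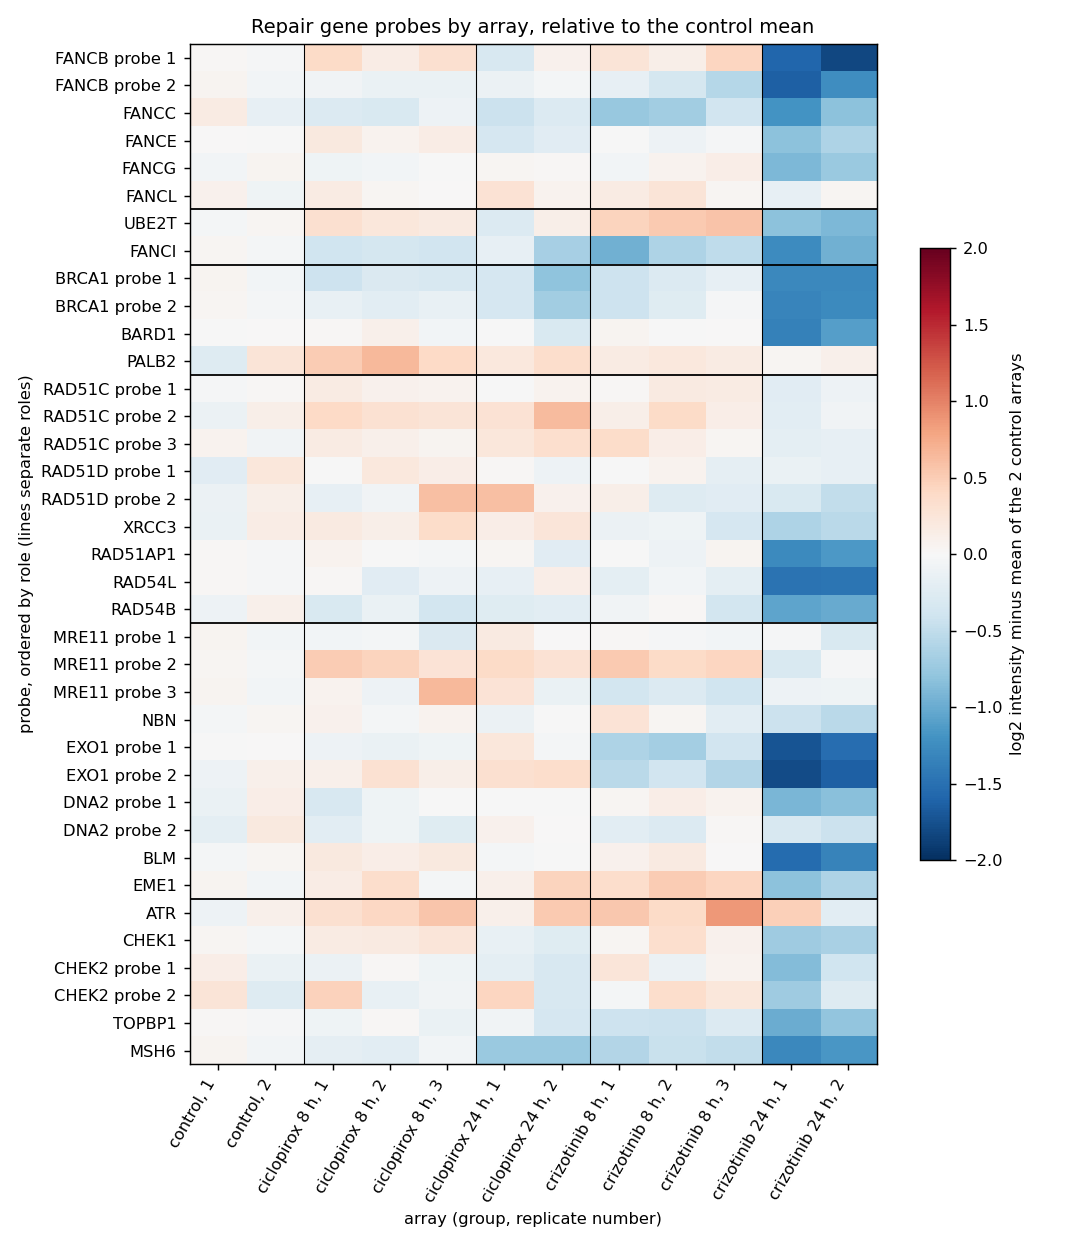
Level of each tested repair probe on each of the 12 arrays, as the log2 difference from the mean of the 2 control arrays, with probes in rows grouped by role and arrays in columns grouped by treatment. The 2 crizotinib 24 h columns are low for most rows, with 24 of 37 probes called lower, and PALB2, FANCL, RAD51C and MRE11 are among the rows that are not.

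In the Fanconi core complex, which carries the ubiquitin ligase activity of the pathway, 5 of 6 probes fell at 24 h of crizotinib (median difference -0.91). FANCB, a subunit of the catalytic module, read 7.42 and 7.36 on the control arrays with probe 1 (ILMN_1726756), 7.77, 7.53 and 7.71 at 8 h of ciclopirox, 7.06 and 7.47 at 24 h of ciclopirox, 7.64, 7.51 and 7.81 at 8 h of crizotinib, and 5.80 and 5.57 at 24 h of crizotinib. Probe 2 of FANCB (ILMN_1698252) read 7.62 and 7.50, then 7.49, 7.43 and 7.43, then 7.44 and 7.52, then 7.39, 7.21 and 6.98, and last 5.92 and 6.31 in the same order. On both probes the 2 crizotinib 24 h arrays were lower than each of the other 10, which spanned less than 1 log2 unit. FANCB fell by 1.70 ± 0.16 (SE; adjusted p = 5.35e-05) on probe 1 and by 1.44 ± 0.15 (adjusted p = 0.0001145) on probe 2. With median-scaled matched scanner signals these were smaller, -1.08 and -0.95, and still called. FANCC, which joins FANCE and FANCF in the substrate-binding arm, read 6.85 and 6.53 in control, 6.42, 6.38 and 6.58 at 8 h of ciclopirox, 6.27 and 6.42 at 24 h, 5.94, 6.0 and 6.31 at 8 h of crizotinib, and 5.50 and 5.87 at 24 h. Its 5 crizotinib arrays all lay below the 2 control arrays, and the difference at 24 h was -1.01 ± 0.17 (adjusted p = 0.002016), or -0.65 with median scaling. FANCE, which binds FANCD2, read 9.42 and 9.41 in control, 9.61, 9.48 and 9.57 and then 9.08 and 9.19 with ciclopirox, and 9.40, 9.31 and 9.39 and then 8.60 and 8.80 with crizotinib. It fell by 0.71 ± 0.10 at 24 h of crizotinib (adjusted p = 0.0006622), with the 24 h arrays of both drugs below all other arrays. FANCG, a scaffold subunit, fell by 0.82 ± 0.10 (adjusted p = 0.0002667). FANCL, the ligase subunit itself, was not called (-0.06, 95% interval -0.34 to 0.21).

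Both measured genes of the ubiquitination step fell at 24 h of crizotinib, after moving in opposite directions at 8 h. UBE2T, the conjugating enzyme, read 10.94 and 11.03 in control, 11.30, 11.22 and 11.16 at 8 h of ciclopirox, 10.72 and 11.10 at 24 h, 11.44, 11.52 and 11.56 at 8 h of crizotinib, and 10.16 and 10.09 at 24 h. Its 3 crizotinib 8 h arrays were the highest of the 12 and its 2 crizotinib 24 h arrays the lowest. UBE2T rose by 0.52 ± 0.11 at 8 h (adjusted p = 0.02813) and stood 0.86 below control at 24 h (-0.86 ± 0.13, adjusted p = 0.0008342). FANCI, a subunit of the clamp that is ubiquitinated, read 8.88 and 8.81 in control, 8.45, 8.50 and 8.47 at 8 h of ciclopirox, 8.69 and 8.19 at 24 h, 7.89, 8.24 and 8.34 at 8 h of crizotinib, and 7.58 and 7.88 at 24 h. The 2 control arrays were the highest of the 12, and FANCI was lower by 8 h of crizotinib (-0.69 ± 0.17, adjusted p = 0.03802) and at 24 h (-1.12 ± 0.18, adjusted p = 0.001712).

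Of the BRCA complex, 3 of 4 probes fell at 24 h of crizotinib (median -1.26). BRCA1, the ubiquitin ligase that promotes resection, read 9.24 and 9.12 in control on probe 1 (ILMN_1738027), 8.77, 8.89 and 8.87 at 8 h of ciclopirox, 8.85 and 8.37 at 24 h, 8.77, 8.90 and 9.02 at 8 h of crizotinib, and 7.90 and 7.89 at 24 h. On probe 2 (ILMN_2311089) it read 8.81 and 8.72, then 8.62, 8.55 and 8.61, then 8.43 and 8.07, then 8.36, 8.53 and 8.75, and last 7.44 and 7.49. The crizotinib 24 h arrays were the lowest on both probes, with differences of -1.29 ± 0.15 (adjusted p = 0.0001844) and -1.30 ± 0.14 (adjusted p = 0.0001474). BARD1, the partner that stabilises BRCA1, fell by 1.23 ± 0.12 (adjusted p = 9.33e-05). PALB2, which links BRCA1 to BRCA2, did not share this: it read 7.06 and 7.58 in control, 7.83, 7.97 and 7.72 at 8 h of ciclopirox, 7.53 and 7.66 at 24 h, 7.48, 7.53 and 7.48 at 8 h of crizotinib, and 7.35 and 7.43 at 24 h. Its crizotinib 24 h arrays lay between the 2 control arrays, which differed from each other by more than those of any other group of this gene, and the difference was 0.07 (95% interval -0.27 to 0.41).

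Among factors of strand invasion, 4 of 9 probes fell at 24 h of crizotinib (median -0.40), and the 4 were of 4 genes. RAD54L read 8.86 and 8.82 in control, 8.86, 8.62 and 8.74 at 8 h of ciclopirox, 8.67 and 8.97 at 24 h, 8.65, 8.79 and 8.64 at 8 h of crizotinib, and 7.36 and 7.38 at 24 h. The last 2 arrays stood more than 1 log2 unit below the other 10, a fall of 1.47 ± 0.12 (2.77-fold; adjusted p = 3.19e-05). RAD51AP1, which stimulates strand invasion, fell by 1.22 ± 0.11 (adjusted p = 5.16e-05), RAD54B, a relative of RAD54L, by 1.03 ± 0.14 (adjusted p = 0.0005145) and XRCC3, which works in a complex with RAD51C, by 0.58 ± 0.13 (adjusted p = 0.009351). RAD51C, with differences of -0.15 to -0.18 on 3 probes, and RAD51D, with -0.15 and -0.40 on 2 probes, were not called.

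In end resection, helicases and nucleases, 6 of 10 probes fell at 24 h of crizotinib (median -0.60). EXO1, the exonuclease of long-range resection, read 10.23 and 10.25 in control on probe 1 (ILMN_1673721), 10.14, 10.11 and 10.16 at 8 h of ciclopirox, 10.46 and 10.20 at 24 h, 9.62, 9.55 and 9.85 at 8 h of crizotinib, and 8.50 and 8.71 at 24 h. On probe 2 (ILMN_2351916) it read 7.88 and 8.07, then 8.08, 8.29 and 8.09, then 8.29 and 8.34, then 7.44, 7.60 and 7.39, and last 6.19 and 6.34. The 3 crizotinib 8 h arrays were below every control and ciclopirox array on both probes, and the 2 crizotinib 24 h arrays were lower again. EXO1 was lower by 0.56 and 0.50 at 8 h (-0.56 ± 0.12, adjusted p = 0.02099, and -0.50 ± 0.11, adjusted p = 0.02553) and by 1.63 and 1.71 at 24 h (-1.63 ± 0.13, adjusted p = 2.40e-05, and -1.71 ± 0.12, adjusted p = 1.34e-05). BLM, the helicase that unwinds ends and dissolves joint molecules, read 7.85 and 7.92 in control, 8.08, 8.02 and 8.07 at 8 h of ciclopirox, 7.85 and 7.87 at 24 h, 7.98, 8.07 and 7.90 at 8 h of crizotinib, and 6.35 and 6.55 at 24 h. Its other 10 arrays lay within 0.3 of each other, and the crizotinib 24 h arrays were lower by 1.43 ± 0.10 (2.70-fold; adjusted p = 1.40e-05). DNA2, the nuclease and helicase that resects beside BLM, fell by 0.87 ± 0.12 on probe 1 (adjusted p = 0.0007145; -0.51 with median scaling), and its probe 2 (-0.38) was below background on both crizotinib 24 h arrays and was not called. EME1, a nuclease subunit that cuts joint molecules, fell by 0.72 ± 0.15 (adjusted p = 0.006682), and NBN, the adaptor of the MRE11 complex, by 0.48 ± 0.14 (adjusted p = 0.02858). The 3 probes of MRE11, the nuclease of that complex, were not called, with differences of -0.16, -0.17 and -0.09.

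Of the checkpoint kinases and the mismatch sensor, 4 of 6 probes fell at 24 h of crizotinib (median -0.66). CHEK1, the kinase that restrains the cycle when replication stalls, read 10.30 and 10.23 in control, 10.43, 10.45 and 10.50 at 8 h of ciclopirox, 10.11 and 10.02 at 24 h, 10.31, 10.60 and 10.35 at 8 h of crizotinib, and 9.55 and 9.61 at 24 h. It fell by 0.68 ± 0.11 (adjusted p = 0.00154), and no other array came as low as the crizotinib 24 h arrays. MSH6, which recognises mismatches, read 11.81 and 11.71 in control, 11.58, 11.55 and 11.71 at 8 h of ciclopirox, 11.02 and 11.02 at 24 h, 11.17, 11.31 and 11.27 at 8 h of crizotinib, and 10.47 and 10.59 at 24 h. MSH6 was the only one of the 27 genes called lower against control in both drugs at 24 h on all its tested probes, and its difference with crizotinib was -1.23 ± 0.10 (adjusted p = 2.82e-05). TOPBP1, the activator of ATR, fell by 0.89 ± 0.12 (adjusted p = 0.0005328), and CHEK2, the kinase downstream of ATM, by 0.63 ± 0.17 on probe 1 (adjusted p = 0.01984) with -0.48 on probe 2, which was not called. The ATR probe, above background on 1 of the 2 crizotinib 24 h arrays, differed by 0.13 (95% interval -0.38 to 0.65).

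**Figure D2:**
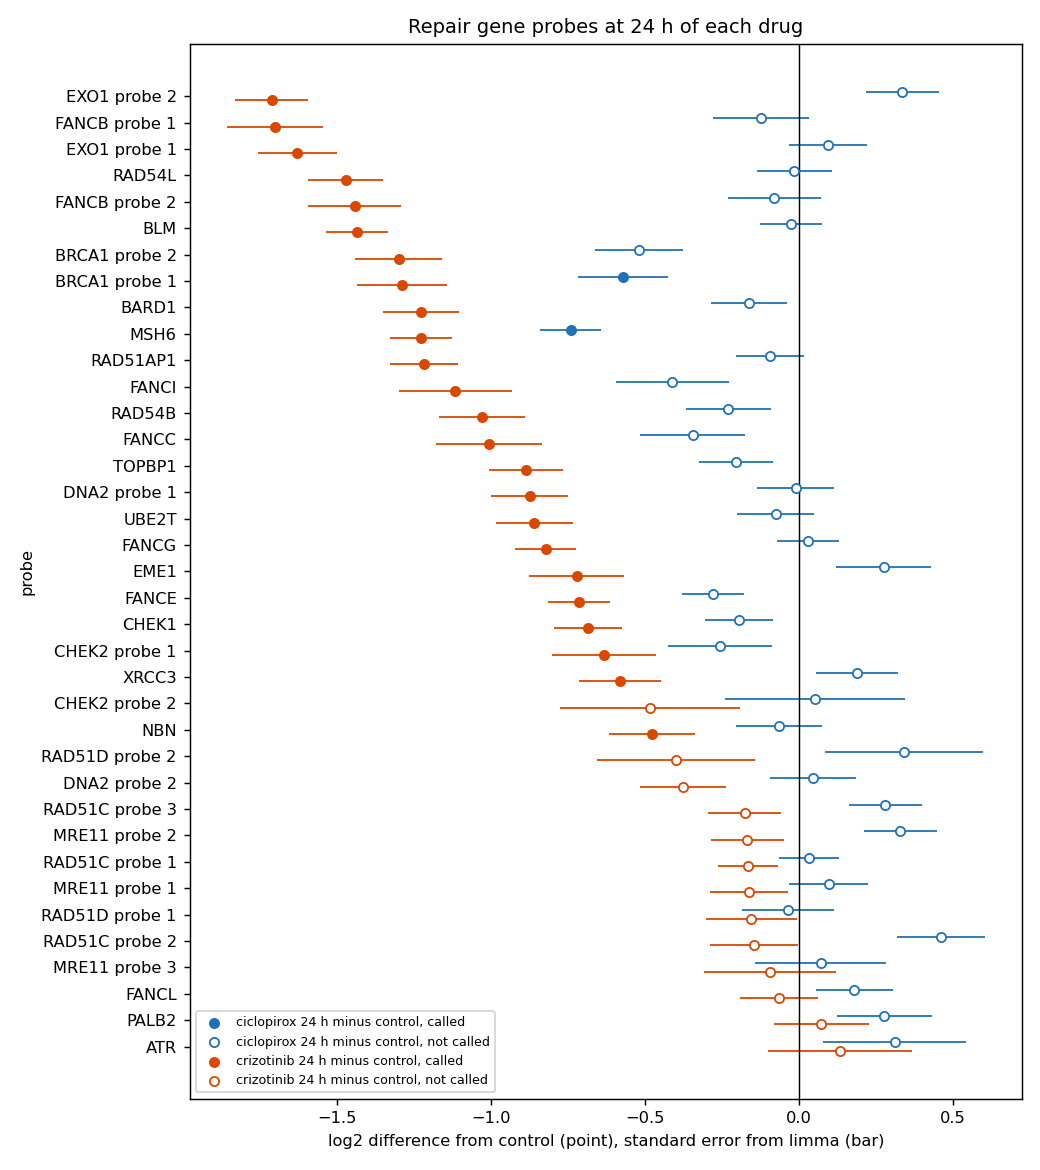
Difference from control at 24 h for each of the 37 tested repair probes, in log2 units, with points for the limma estimate, bars for its standard error, and filled points for called probes. Crizotinib points run from -1.71 to 0.13 with 24 filled, and ciclopirox points run from -0.74 to 0.46 with 2 filled.

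At 24 h of ciclopirox the share of listed probes called was near that of all probes. Before adjustment, 9 of the 37 had a limma p under 0.05. Of the 37 probes, 2 fell and 0 rose (5.41%), where 7.03% of all probes were called, 3.95% higher and 3.09% lower, and the median difference was -0.01. MSH6 fell by 0.74 ± 0.10 (adjusted p = 0.002472), both 24 h arrays lying below all control and 8 h arrays of this drug. BRCA1 fell by 0.57 ± 0.15 on probe 1 (adjusted p = 0.04364), and its probe 2 differed by -0.52 ± 0.14 without being called (adjusted p = 0.05432). BLM (-0.03, 95% interval -0.25 to 0.20) and the 2 EXO1 probes (0.09 and 0.34) were not called. In each fit that left out 1 array, the share of all probes called was below 7.03%. It was 0.513% when the fit held only the arrays compared. The 2 calls became 1 without control replicate 1, control replicate 2 or ciclopirox 24 h replicate 2, 3 without ciclopirox 24 h replicate 1, and 0 (6 probes at an unadjusted p under 0.05) when the limma fit held only the arrays compared.

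After 8 h of ciclopirox the share of listed probes called was near that of all probes. Before adjustment, 5 of the 37 had a limma p under 0.05. With ciclopirox, 2 of 37 probes rose and 0 fell (5.41%), where 7.84% of all probes were called, 3.51% higher and 4.33% lower. PALB2, on the arrays given above, was higher by 0.52 ± 0.14 (adjusted p = 0.04905), its 3 arrays all above both control arrays. MRE11 read 6.43 and 6.36 in control on its probe 2 (ILMN_1760802), 6.90, 6.83 and 6.67 at 8 h of ciclopirox, 6.77 and 6.67 at 24 h, 6.91, 6.78 and 6.82 at 8 h of crizotinib, and 6.09 and 6.36 at 24 h. The 8 h arrays of both drugs lay above the control arrays, by 0.41 ± 0.11 with ciclopirox (adjusted p = 0.04545), and the other 2 MRE11 probes were not called. In each fit that left out 1 array, the share of all probes called was below 7.84%. With median scaling of matched scanner columns it was 14.3%, and the median of all probes was -0.08. Neither call was secure: the count was 0 without control replicate 1 or without any 1 of the ciclopirox 8 h arrays (2 to 5 probes at an unadjusted p under 0.05), 1 without control replicate 2, and it was 0 higher and 3 lower on matched scanner columns with median scaling.

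With crizotinib at 8 h, 2 probes rose and 5 fell (18.9%), where 7.05% of all probes were called, 3.58% higher and 3.47% lower. The 5 were FANCI, FANCC (-0.61 ± 0.16, adjusted p = 0.04403), both EXO1 probes and MSH6 (-0.51 ± 0.09, adjusted p = 0.01199), and the 2 that rose were UBE2T and MRE11 probe 2 (0.44 ± 0.11, adjusted p = 0.03875). The limma count was 0 when either control array was left out (10 and 11 probes at an unadjusted p under 0.05), at most 4 without any other single array, and 1 higher and 9 lower on the matched scanner columns after median scaling. The share of all probes called was also below 7.05% in each fit that left out 1 array. With median scaling 16.6% of all probes were called, and their median difference was -0.10. BLM (0.10), RAD54L, FANCB and CHEK1, which were lower at 24 h, were not called at 8 h.

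**Figure D3:**
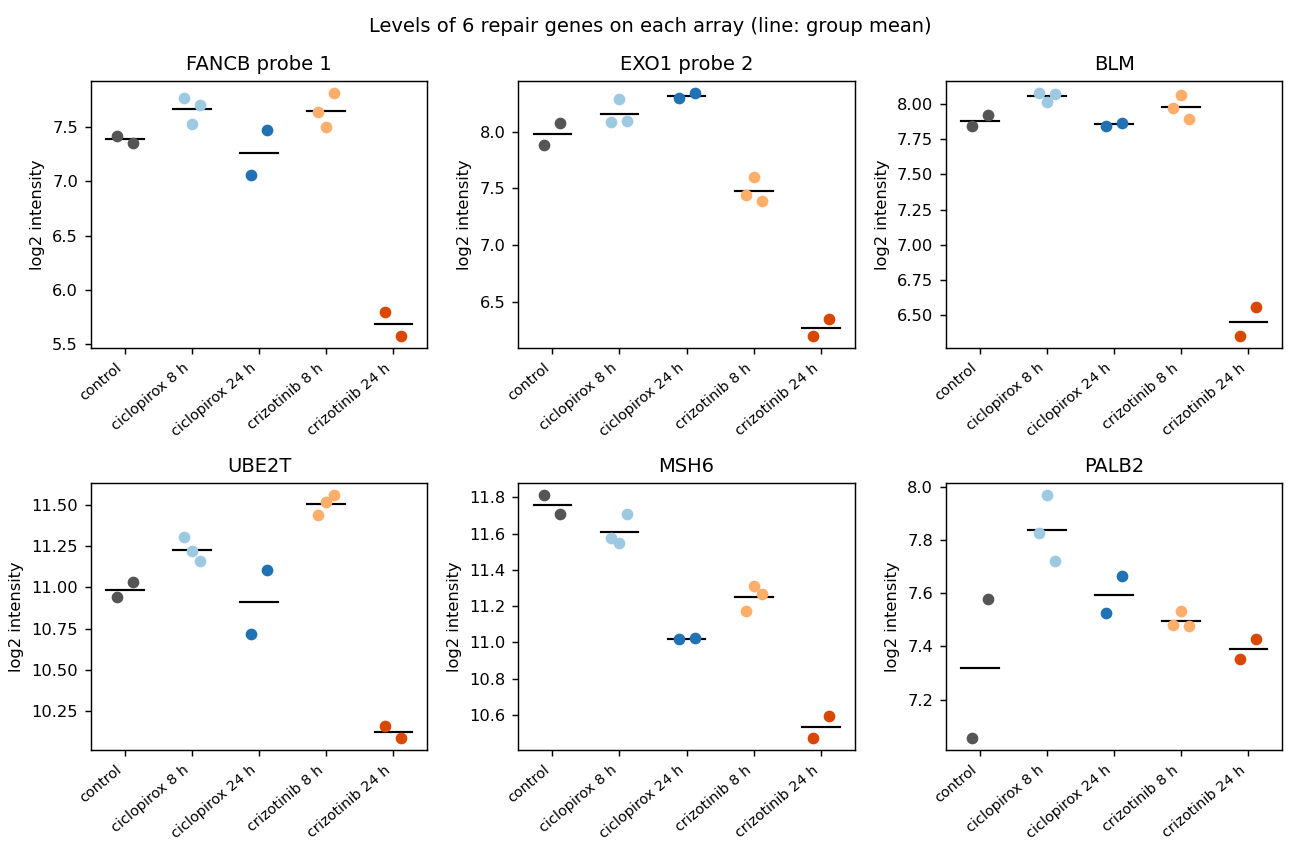
Log2 intensity on each of the 12 arrays for selected repair probes, 1 panel per probe with its own vertical scale that does not start at 0, with points for arrays by group and lines for group means. For FANCB and BLM the 2 crizotinib 24 h arrays stand apart below the other 10, EXO1 also shows the 3 crizotinib 8 h arrays below control, and MSH6 is low at 24 h of both drugs.

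The change with time was compared within each drug, as a difference in which the control arrays do not enter, although they share in the spread that limma estimates over all 12 arrays. From 8 h to 24 h of crizotinib 25 of 37 probes, of 21 genes, fell and 0 rose (67.6%), where 33.3% of all probes were called, 17.4% higher and 15.9% lower, and 36 of 37 differences lay below 0 (median -0.67). FANCB fell by 1.97 ± 0.14 (adjusted p = 9.70e-06) and 1.08 ± 0.14 (adjusted p = 0.0002651), BLM by 1.53 ± 0.09 (adjusted p = 4.19e-06) and UBE2T by 1.38 ± 0.11 (adjusted p = 2.17e-05). With median scaling FANCB differed by -1.13 and -0.61 and BLM by -1.0, all called. From 8 h to 24 h of ciclopirox 3 probes fell and 0 rose (8.11%), where 15.7% of all probes were called, 8.91% higher and 6.84% lower. These were MSH6 (-0.59 ± 0.09, adjusted p = 0.002547), FANCE (-0.42 ± 0.09, adjusted p = 0.01357) and CHEK1 (-0.39 ± 0.10, adjusted p = 0.02657). The ciclopirox count was 2 without ciclopirox 24 h replicate 1 or any 1 of the 8 h arrays, 4 without ciclopirox 24 h replicate 2, and 1 with median-scaled matched scanner signals, under which the listed probes' median difference was 0.04 and not -0.08.

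The drugs were then set against each other at matched times. At 8 h, 3 of 37 probes were lower with crizotinib than with ciclopirox and 0 higher (8.11%), where 7.11% of all probes were called, 3.51% higher and 3.6% lower. They were EXO1 on both probes (-0.68 ± 0.10, adjusted p = 0.003311, and -0.46 ± 0.10, adjusted p = 0.02719) and MSH6 (-0.36 ± 0.08, adjusted p = 0.02762), and the count was 1 without any 1 of the ciclopirox arrays or crizotinib 8 h replicate 1 or 2. At 24 h, 25 probes of 21 genes were lower with crizotinib and 0 higher (67.6%), where 19.9% of all probes were called, 9.89% higher and 10% lower, and 37 of 37 differences were below 0 (median -0.68). EXO1 differed by -2.05 ± 0.12 (adjusted p = 3.59e-06) and -1.72 ± 0.13 (adjusted p = 1.77e-05), FANCB by -1.58 ± 0.16 and -1.36 ± 0.15 (-0.95 and -0.90 with median scaling), RAD54L by -1.46 ± 0.12 and BLM by -1.41 ± 0.10. RAD51C, not called against control, was lower than with ciclopirox on 2 of its 3 probes (-0.61 ± 0.14, adjusted p = 0.01387, and -0.46 ± 0.12, adjusted p = 0.02207). On these 2 probes the means were 9.45 and 9.53 in control and 9.31 and 9.36 at 24 h of crizotinib. At 24 h of ciclopirox they were 9.91 and 9.81, above control but not called, so the gap lies largely on the ciclopirox side. When the limma fit held only these 4 arrays, 16 probes were called.

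The 8 h to 24 h change of crizotinib was set against that of ciclopirox in an interaction test. It was more negative with crizotinib for 15 of 37 probes, of 12 genes, and more positive for 0 (40.5%), where 8.2% of all probes were called, 3.88% higher and 4.32% lower. The largest differences were those of FANCB probe 1 (-1.56 ± 0.20, adjusted p = 0.001634), RAD54L (-1.41 ± 0.16, adjusted p = 0.0009003) and EXO1 probe 2 (-1.37 ± 0.15, adjusted p = 0.0009003), and BLM differed by -1.33 ± 0.13 (adjusted p = 0.0005363). With median scaling the difference was -0.93 for FANCB probe 1, -1.18 for RAD54L, -0.96 for EXO1 probe 2 and -0.92 for BLM, and EXO1 probe 1 had the largest (-1.27).

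Other repair genes were read from lists of genes outside the 37. At 24 h of crizotinib, 23 of 52 probes of other Fanconi and recombination genes fell, of 15 genes, and 8 rose, of 5 genes. With median-scaled matched scanner signals, which moved the median of all probes to -0.12, 27 fell and 0 rose. PSMC3IP, a cofactor of strand exchange (-1.97 ± 0.24, adjusted p = 0.0002657), FIGNL1, an ATPase of recombination (-1.54 ± 0.21, adjusted p = 0.0006204), and USP1, which removes ubiquitin from FANCD2 (-1.47 ± 0.10, adjusted p = 8.84e-06), had the lowest values. With median scaling PSMC3IP was at -1.21, FIGNL1 at -1.03 and USP1, then the lowest of these, at -1.36. Of the checkpoint and damage signalling list 10 of 18 probes fell and 1 rose, or 13 and 0 with median scaling, with the phosphatase CDC25A (-1.51 ± 0.17, or -0.87 on this probe with median scaling), the fork protection factor TIPIN (-1.18 ± 0.12) and the histone variant H2AX (-1.0 ± 0.14) lowest. In end joining 1 of 11 probes was lower, the Ku subunit XRCC5 (-0.43 ± 0.12, or -0.65 with median scaling), and 1 higher, the polymerase POLL (0.79 ± 0.22, or 0.36), and median scaling gave 3 lower and 1 higher. In mismatch repair 1 of 5 probes was lower, of the sliding clamp PCNA (-0.67 ± 0.10), and 2 of 5 with median scaling. MSH6, also a mismatch repair gene and lower as given above, was counted among the 37. PCNA was also counted in the list of S phase genes read below. Shares were not tested between lists. Of all 16563 tested probes, 12.9% were lower and 13% higher at 24 h of crizotinib. In base and nucleotide excision repair 4 of 25 fell (16%) and 5 rose (20%), near the shares of all probes in the normalized table. With median scaling 8 of the 25 fell and 3 rose, where 33.7% of all probes were called in either direction, with a median of -0.12. The damage sensors XPC (1.18 ± 0.10, adjusted p = 3.72e-05) and DDB2 (1.08 ± 0.17, adjusted p = 0.001279, or 0.61 with median scaling) rose, and the uracil glycosylase UNG fell (-1.03 ± 0.10, adjusted p = 6.92e-05).

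At 24 h of ciclopirox, 6 of the 52 other Fanconi and recombination probes rose and 1 fell, or 3 and 4 with median scaling. The 6 were of 3 genes among 35 tested, and most of them were probes of ERCC1. Of all tested probes, 3.95% were higher and 3.09% lower in the normalized table. PSMC3IP was higher by 0.83 ± 0.11 on 1 probe (adjusted p = 0.002759), and the nuclease subunit ERCC1 by up to 0.62 ± 0.11 (adjusted p = 0.01129; 0.39 with median scaling). DDB2 (0.92 ± 0.17, adjusted p = 0.0119; 0.59 with median scaling) and XPC (0.65 ± 0.10, adjusted p = 0.005101) were higher with this drug also, and UNG was lower (-0.63 ± 0.10, adjusted p = 0.00537). WEE1, the kinase that holds back mitotic entry, was the 1 checkpoint probe of 18 that was called (-0.56 ± 0.15, adjusted p = 0.04811).

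**Figure D4:**
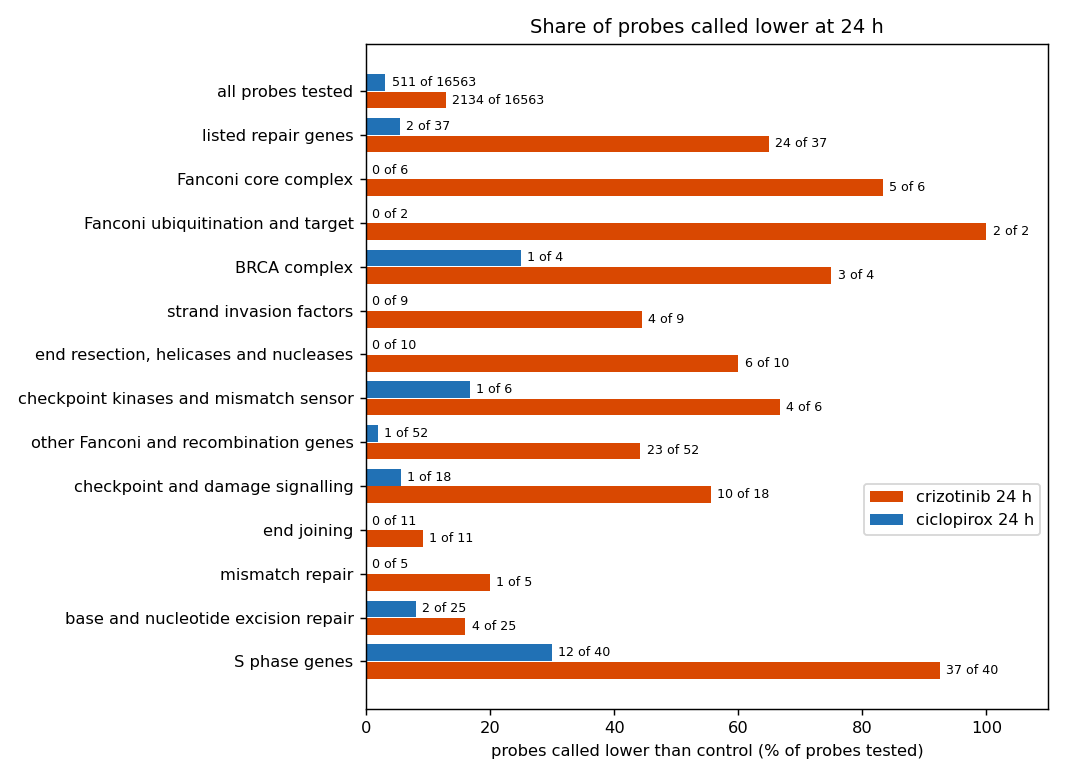
Share of tested probes called lower than control at 24 h, in percent of the probes of each set, for crizotinib and ciclopirox, with the number of probes called beside each bar. The listed repair genes reach 24 of 37 with crizotinib and 2 of 37 with ciclopirox, against 2134 and 511 of all 16563 probes, and end joining has 1 of 11, or 3 of 11 with median scaling, and 0 of 11.

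Genes of DNA replication moved in the same samples. Of 40 probes of a list of S phase genes, 37 fell and 0 rose at 24 h of crizotinib (median -0.83), 12 fell and 0 rose at 24 h of ciclopirox (median -0.25), 2 fell and 1 rose at 8 h of crizotinib, and 0 were called by limma at 8 h of ciclopirox (10 at an unadjusted p under 0.05). The count at 8 h of crizotinib depended on the scaling: 6 fell and 2 rose with neqc on matched scanner columns, and 13 fell and 0 rose with median scaling. Of all tested probes in the normalized table, 12.9% fell and 13% rose at 24 h of crizotinib, and 3.09% and 3.95% at 24 h of ciclopirox. At 8 h these shares were 3.47% and 3.58% with crizotinib and 4.33% and 3.51% with ciclopirox. From 8 h to 24 h, 38 S phase probes fell with crizotinib and 20 with ciclopirox, where 15.9% and 6.84% of all probes fell. The interaction called 14 lower (4.32% of all probes), or 23 with median scaling. Of 3 tested fibroblast probes, 2 were higher at 24 h of crizotinib and the third differed by 0.14: MFAP5 differed from control by 1.0 ± 0.16 and LUM by 1.0 ± 0.13, the summed level of the 11 fibroblast probes was 309.7 to 323.3 in control and 405.2 to 439.9 at 24 h of crizotinib, and 1 of the 3 was also higher in each other group, MFAP5 with ciclopirox (0.73 at 8 h and 0.61 at 24 h) and LUM at 8 h of crizotinib (0.50). Over the 12 arrays MFAP5 ran from 5.28 to 6.57 and this LUM probe from 5.39 to 6.55, near the background level of 5.26 to 5.41. The other LUM probe was detected on 0 arrays. PDGFRA, COL1A2 and COL3A1 were not above background on any array. The part of either list in the levels of the repair genes was not tested. Each group lay in a block on the chip, and the effects of chip position and of treatment cannot be told apart.

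The promoters were read for letters of a cell cycle motif, because the listed genes fell together. RefSeq promoter windows of GRCh38.p14, from 250 bases before to 50 after the annotated start, were found for 23 of the 27 tested genes, and those of FANCI, RAD54B, NBN and DNA2 were not analysed here. The letters searched for E2F factors were the core TTCCCGC, the core TTGGCGC, the core TTCGCGC and the core TTGCCGC. Those of the cell cycle homology region, CHR, were the form TTTGAA and the form TTCGAA. Matches were counted on both strands and with overlaps allowed, in any of a gene's windows. Shown are the 4 genes with the lowest differences at 24 h of crizotinib in the normalized table and PALB2, which was not called, with E2F letters in capitals, each in its first listed window and written 5′ to 3′ on the gene's strand:
FANCB, chrX:14873020-14873319, minus strand: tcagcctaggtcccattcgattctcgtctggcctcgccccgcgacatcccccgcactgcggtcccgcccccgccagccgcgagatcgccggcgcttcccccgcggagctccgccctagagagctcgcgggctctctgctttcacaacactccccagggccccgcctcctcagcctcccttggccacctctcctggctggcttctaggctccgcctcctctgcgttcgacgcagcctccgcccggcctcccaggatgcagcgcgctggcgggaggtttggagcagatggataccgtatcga
EXO1, chr1:241847954-241848253, plus strand: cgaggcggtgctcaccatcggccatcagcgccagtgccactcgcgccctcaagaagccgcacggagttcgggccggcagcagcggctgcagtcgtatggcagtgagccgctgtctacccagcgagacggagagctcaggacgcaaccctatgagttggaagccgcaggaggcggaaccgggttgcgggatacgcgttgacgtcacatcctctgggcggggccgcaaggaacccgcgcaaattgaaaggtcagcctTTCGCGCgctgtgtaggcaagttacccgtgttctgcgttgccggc
RAD54L, chr1:46247438-46247737, plus strand: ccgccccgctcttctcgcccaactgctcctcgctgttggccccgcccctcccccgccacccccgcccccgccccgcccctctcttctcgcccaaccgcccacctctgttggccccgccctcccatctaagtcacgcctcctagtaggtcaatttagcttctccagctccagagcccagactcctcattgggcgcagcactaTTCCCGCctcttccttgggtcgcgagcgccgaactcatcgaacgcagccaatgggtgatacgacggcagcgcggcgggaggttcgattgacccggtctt
BLM, chr15:90717096-90717395, plus strand: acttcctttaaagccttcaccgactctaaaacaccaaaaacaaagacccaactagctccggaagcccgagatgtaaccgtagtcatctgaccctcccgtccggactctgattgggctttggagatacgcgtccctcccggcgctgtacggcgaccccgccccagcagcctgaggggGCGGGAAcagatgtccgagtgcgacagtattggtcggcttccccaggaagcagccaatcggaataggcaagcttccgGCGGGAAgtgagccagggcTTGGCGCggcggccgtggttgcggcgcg
PALB2, chr16:23641261-23641560, minus strand: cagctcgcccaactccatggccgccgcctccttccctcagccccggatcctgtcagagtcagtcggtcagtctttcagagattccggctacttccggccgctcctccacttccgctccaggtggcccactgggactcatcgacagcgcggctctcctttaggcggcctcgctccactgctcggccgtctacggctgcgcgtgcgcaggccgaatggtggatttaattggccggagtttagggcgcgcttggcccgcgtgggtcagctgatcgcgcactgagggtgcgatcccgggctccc
In these windows BLM held 3 E2F matches, EXO1 and RAD54L 1 each, and FANCB and PALB2 0.

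Over the 23 genes, 15 held an E2F core (65.2%), compared with 15.3% of 27305 genes with a window and 25.3% of the 8373 genes of the array's tested probes. The share was 13 of 17 (76.5%) among genes with a probe lower at 24 h of crizotinib, where CHEK1, CHEK2, FANCB and UBE2T held none, and 2 of 6 (33.3%) among the tested genes with none lower, where FANCL and RAD51D held one. The CHR was in 2 of 23 genes, FANCC and UBE2T (8.7%), compared with 19.5% of all genes with a window and 15.8% of the array's tested genes. In TOPBP1 the 2 E2F matches overlap. On the gene's own strand only, the E2F share was 30.4% of the 23 genes, 8.4% of all and 14.1% of the array's tested genes. On that strand it was 6 of 17 (35.3%) among genes with a probe lower and 1 of 6 (16.7%) among those with none lower. FANCI, RAD54B, NBN and DNA2, which had no window, all had a probe lower at 24 h of crizotinib. A match is a description of these letters in this window and not a bound site.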

How the data were processed

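RNA of A375 cells was measured on 12 Illumina bead arrays of 1 chip, 300 ng of total RNA having been amplified and biotin-labelled, per the labels' protocols. The authors deposited 2 tables: the scanner's average signal intensity and its detection p-value over 47231 probes, per the file headers, and normalized intensity on a linear scale (12.0 to 38205.3) for 38220 probes. GenomeStudio is named in the submitters' processing notes, and how they normalized is not stated in those notes. Of the scanner signals 28.8% were below 0, so background had been subtracted. The number of arrays limits the precision.

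Log2 of the normalized intensity was tested with limma 3.58.1 in R 4.3.3, with 1 mean per group over the 12 arrays (7 residual degrees of freedom, prior 3.43), eBayes, two-sided, and Benjamini-Hochberg adjustment within each of 9 comparisons over the 16563 probes detected (p under 0.01) on at least 2 arrays. The filter counts scanner columns and needs no column names. Genes were named from the platform annotation, in which 27002 probes had 1 symbol, 4 several and 11214 none. Replicate numbers did not pair the arrays: the correlation of deviations of same-numbered arrays ran from -0.09 to 0.08.

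The repair genes and the other lists were chosen with earlier results of these data known. Values on every array are given for the 3 probes with the largest called difference in each comparison and for FANCI, BRCA1 and BLM, and genes outside the list are named only as the largest called differences of their list. Alternatives were 1 probe per gene, no detection filter, detection on all arrays, only the arrays compared, a replicate block, limma-trend, scanner signals under either naming (neqc, or normexp with offset 50 and median scaling) and leaving out each array.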

Additional observations from a re-analysis of the deposited data

Results flagged for a closer look

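For 15 probes of the listed repair genes the time course of crizotinib differed from that of ciclopirox, by limma's interaction term with adjusted p from 0.0005363 to 0.03722. For each of the 15 the change was more negative with crizotinib. The differences, on the log2 scale, were -1.56 and -1.10 for the 2 FANCB probes, -1.41 for RAD54L, -1.37 and -1.26 for the 2 EXO1 probes, -1.33 for BLM and -1.27 for EME1. They were -1.10 for RAD51AP1, -1.08 for DNA2, -1.06 for BARD1, -1.06 for UBE2T, -0.96 for FANCG and -0.93 for RAD54B. BRCA1 had the smallest, -0.77 and -0.73 on its 2 probes. Leaving out crizotinib 24 h replicate 1 gave 12 such probes, and leaving out any other single array at most 15.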

How the results depend on the processing

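Of the called differences of the listed genes, 0 turned sign when the normalized table or the matched scanner columns were processed another way. All 106 were kept with neqc on matched scanner columns and with detection on all arrays, 101 with median scaling, 104 with limma-trend, 95 with the replicate block, 78 without a detection filter and 77 with only the arrays compared. The last 2 fits held a larger number of tests or fewer arrays, and the part of either in the lost calls was not tested. Over the 9 comparisons the main fit called 7.03% to 33.3% of all probes. Without a filter the range was 0.623% to 9.57%, and with only the arrays compared 0.513% to 27.8%. In each fit that left out 1 array, the share of all probes called was also smaller than in the main fit of that comparison. When single arrays were left out, 444 of 557 call checks were kept. Against control, the number of probes called ranged from 0 to 1 for ciclopirox 8 h, 1 to 3 for ciclopirox 24 h, 0 to 4 for crizotinib 8 h and 20 to 23 for crizotinib 24 h. It ranged from 2 to 4 between the ciclopirox times, 21 to 24 between the crizotinib times, 1 to 2 between the drugs at 8 h, 17 to 25 at 24 h and 12 to 15 for the interaction. For ciclopirox 8 h against control the count was 1 with 1 probe per gene, 0 (5 at an unadjusted p under 0.05) without a filter, 0 (8) with only the arrays compared, 1 with the replicate block and 1 with limma-trend. For ciclopirox 24 h it was 1 without a filter, 4 with detection on all arrays, 0 (6) with only the arrays compared, 1 with the replicate block and 4 with limma-trend. For crizotinib 8 h it was 0 (11) without a filter, 0 (13) with only the arrays compared and 4 with the replicate block. Between the ciclopirox times it was 1 without a filter, 1 with only the arrays compared and 1 with median scaling. Between the drugs at 8 h it was 1 without a filter, 1 with only the arrays compared and 6 with limma-trend, and at 24 h 16 with only the arrays compared. The replicate block, which joins arrays that share only a number, moved no other count by over 1.5 times. With scanner columns named by the descriptions, the counts were 1 for ciclopirox 8 h against control, 11 between the drugs at 8 h, all 11 higher with crizotinib, and 0 in the other 7 comparisons (1 to 20 at an unadjusted p under 0.05). The cause of the changes in count between the other settings was not tested. Probes near background, MRE11 probe 3, DNA2 probe 2 and ATR, limit what can be seen of those genes.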
